A study of Mus musculus with 5 samples.

Results

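The secreted Wnt antagonists form a small group of extracellular proteins, and 8 of their genes, Sfrp1, Sfrp2, Sfrp4, Sfrp5, Frzb, Wif1, Dkk2 and Dkk3, were followed among the 31055 genes counted in mesenchymal cells of mouse skeletal muscle around a bone injury. The list was selected on UMI levels seen in earlier results from these same libraries. Their levels are therefore a description, and no test was run on them. Wnt proteins bind Frizzled receptors and the coreceptors Lrp5 and Lrp6, and through beta-catenin they take part in osteoblast and chondrocyte differentiation. The secreted frizzled-related proteins (Sfrp1, Sfrp2, Sfrp4, Sfrp5 and Frzb) carry a cysteine-rich domain like that of the receptors and bind Wnts outside the cell. Wif1 also binds Wnts, Dkk2 binds the Lrp5 and Lrp6 coreceptors, and Dkk3 is a divergent relative of the Dickkopf proteins with a less settled role.

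The study asked how skeletal muscle mesenchyme takes part in bone repair and how this goes wrong in polytrauma, a fracture with added injury to the surrounding muscle. GFP+ cells were sorted from the muscle around the tibia of Prx1Cre;mTmG mice on a C57Bl/6 background, in which Cre driven by the Prx1 enhancer marks the limb mesenchyme lineage for good, so that GFP labels that lineage and not one cell type. Single-cell RNA sequencing was done in 5 libraries, 1 per condition, each pooled from 2 mice: uninjured muscle (d0), d3 and d5 post-fracture, and d3 and d5 post-polytrauma. Skeletal muscle was taken without bone marrow and periosteum. Counts of unique molecular identifiers (UMIs, 1 per captured RNA molecule) were used for the 29831 of 34439 barcodes that had 350 to 8000 genes, under 20% mitochondrial UMIs and at least 1000 UMIs.

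In 2 libraries the deposited label and the cell number given by the study were crossed. The library named d5 post-fracture below was labelled d3 post-polytrauma in the deposit, and the library named d3 post-polytrauma was labelled d5 post-fracture. Names follow the cell numbers. The counts of genes past 2-fold, and the ratios that changed sign, are also given with the labels as deposited, whereas levels within cell types are given under the cell numbers only. Only d0, d3 post-fracture and d5 post-polytrauma do not depend on this choice. Retained cells numbered 4632 at d0, 5589 at d3 post-fracture, 1468 at d5 post-fracture, 6201 at d3 post-polytrauma and 11941 at d5 post-polytrauma, with median depths of 3640, 17963, 34949, 15688 and 15753 UMIs in the same order. The d0 and d3 libraries shared 405 to 525 barcodes pair by pair, the d5 libraries shared 944 and all other pairs shared 0 to 3, so that day 5 and the barcode set cannot be told apart. Of the 1468 cells at d5 post-fracture, 599 had a barcode found in no other library. Markers of fibro-adipogenic and mesenchymal progenitors (FAP/MP), namely Cd34, Ly6a, Pdgfra, Prrx1 and Cxcl12, summed to 933 to 2332 CPM (UMIs of a gene per 1000000 UMIs of the library). Endothelial markers summed to 2.42 to 11.8 CPM, myogenic markers to 0.287 to 3.72 CPM with Pax7 at 0 in 3 libraries, and hematopoietic markers to 17.7 to 112 CPM.

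Levels below are CPM over the summed UMIs of a library, with exact Poisson 95% intervals that cover counting error only and not differences between mice. In such sums, fewer cells of a type and less RNA per cell cannot be told apart. A gene was called higher or lower when its CPM differed at least 2-fold and the 2 libraries held at least 20 of its UMIs together. With 1 library per condition there is no replicate check on any ratio.

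Sfrp4, a frizzled-related protein also known from bone and periosteum, was high in uninjured muscle, low on day 3 of either injury, high again at d5 post-fracture and lowest at d5 post-polytrauma. The gene lies on chromosome 13 from 19623104 to 19632994 on the plus strand (GRCm38, GENCODE annotation). Its level was 214 CPM (207 to 221) at d0, 25.1 (24.2 to 26.1) at d3 post-fracture, 234 (230 to 238) at d5 post-fracture, 12.1 (11.4 to 12.8) at d3 post-polytrauma and 4.42 (4.13 to 4.72) at d5 post-polytrauma. These levels rest on 3734, 2513, 12120, 1246 and 893 UMIs, and no 2 intervals overlap. Sfrp4 was 8.52-fold lower at d3 post-fracture than at d0 and 17.8-fold lower at d3 post-polytrauma. It was then 9.29-fold higher at d5 than at d3 post-fracture, but 2.73-fold lower at d5 than at d3 post-polytrauma. The 2 day 5 libraries thus stood 52.9-fold apart, a log2 ratio of polytrauma over fracture of -5.73 (-5.83 to -5.63, counting error only), which lay at percentile 0.0438 of the 15979 genes compared. The 3 libraries that do not depend on the crossed labels stood at 214, 25.1 and 4.42 CPM. With the labels as deposited, the fracture course would read 214, 25.1 and 12.1 CPM at d0, d3 and d5 and the polytrauma course 214, 234 and 4.42 CPM, so that the return of Sfrp4 at d5 post-fracture rests on the crossed pair.

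The share of cells with an Sfrp4 UMI followed the same order once depth was matched. With each cell thinned to 2000 UMIs, the share was 12.7% at d0, 3.91% at d3 post-fracture, 15.6% at d5 post-fracture, 1.86% at d3 post-polytrauma and 0.755% at d5 post-polytrauma. Without thinning the shares were 18.2%, 12.8%, 36.9%, 7.22% and 3.67%. Pericyte-like cells, taken as a type with little of this gene, had thinned shares of 2.16%, 2.13%, 5.13%, 0% and 0%, the zeros being of 53 and 91 cells. The d3 post-polytrauma and d5 post-polytrauma shares over all cells lay under the upper exact limits of these zeros, 6.72% and 3.97%. With so few pericyte-like cells these limits are wide, and the comparison cannot tell the shares from background. At d5 post-polytrauma FAP/MP-like cells were at 12.5 CPM (11.2 to 13.9) and pericyte-like cells at 0.854 CPM (0.0216 to 4.76), the latter on 1 UMI. At d3 post-polytrauma the gene was still uneven between types, since a tenocyte-like cluster (440 cells) was at 81.5 CPM and held 40.0% of the Sfrp4 UMIs, against 27.0 CPM in FAP/MP-like cells.

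At d5 post-fracture, as in the other libraries, Sfrp4 sat in a small part of the cells. The 293 cells in clusters named FAP/MP-like, 20.0% of the library, held 87.6% of its UMIs, and after thinning 61.2% of them had an Sfrp4 UMI. One of these clusters, led by Dpp4, Efhd1 and Pi16 (136 cells), reached 1745 CPM, and the other, led by Cxcl14, Ifit1 and Gdf10 (157 cells), reached 728 CPM. An unnamed cluster led by Gas2 and Egfl6 was at 114 CPM and every other cluster at 22.7 CPM or less. The 147 cells with the most Sfrp4, 10% of the library, held 88.4% of its UMIs, against 44.3% for Sfrp1 and 46.6% for Sfrp2 in their own top 147 cells. The top 10% of cells held 89.9% of the Sfrp4 UMIs at d0, 93.9% at d3 post-fracture and 100% in both polytrauma libraries. The 100% is fixed in advance, since only 7.22% and 3.67% of cells at d3 and d5 post-polytrauma had an Sfrp4 UMI. Cells were not thinned here, and d5 post-fracture, with the lowest share, was the deepest library. The shares therefore cannot be compared between libraries. In FAP/MP-like cells of d5 post-polytrauma (2163 cells) the level was 12.5 CPM, 96.1-fold below that in FAP/MP-like cells of d5 post-fracture, and 1.72% of thinned cells had a UMI. The class is made of unlike clusters in the 2 libraries, since those of d5 post-polytrauma were led by C3 and Serpina3n (18.5 CPM) and by Penk and Cxcl10 (5.30 CPM), and none there was led by Dpp4 and Pi16. Each library was also restricted to cells with a UMI of both Cd34 and Ly6a, the surface markers of progenitors, an alternative added after the data were seen. This kept 2458, 2321, 617, 2879 and 3683 cells from d0 to d5 post-polytrauma in the order above. Cells were not thinned for it, so that deeper cells pass more readily and the sets are not matched between libraries. Sfrp4 levels in them were 225, 30.4, 489, 14.3 and 6.32 CPM in the same order.

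In uninjured muscle Sfrp4 was found in several cell types, again mostly in few cells. FAP/MP-like clusters ranged from 79.2 to 714 CPM, the top one being led by Inmt and Gdf10 (301 cells), and pericyte-like cells were at 19.6 CPM. A cluster of 65 osteoblast-like cells, led by Bglap2 and Bglap, had the top level of 1465 CPM, and after thinning 32 of 64 of its cells had a UMI. A tenocyte-like cluster led by Wif1 and Col11a2 (254 cells) was at 579 CPM, whereas the tenocyte-like cluster led by Col22a1 was at 1.75 CPM. The 5 osteoblast markers summed to 83.5 CPM at d0, 0.740 at d3 post-fracture, 91.2 at d5 post-fracture, 0.407 at d3 post-polytrauma and 22.3 at d5 post-polytrauma. Like Sfrp4 these markers were high at d0 and at d5 post-fracture. Unlike Sfrp4 they were higher at d5 post-polytrauma than in both day 3 libraries. At d0 the osteoblast-like cells held 16.8% of the Sfrp4 UMIs and FAP/MP-like cells 62.3%. No cluster was named osteoblast-like at d5 post-fracture. There the clusters high in Sp7 and Ibsp, led by Hist1h1b and named chondrocyte-like, held 0.817% and 0.875% of the Sfrp4 UMIs. The part of osteoblast-like cells in the level of Sfrp4 over all cells was not tested.

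**Figure D1:**
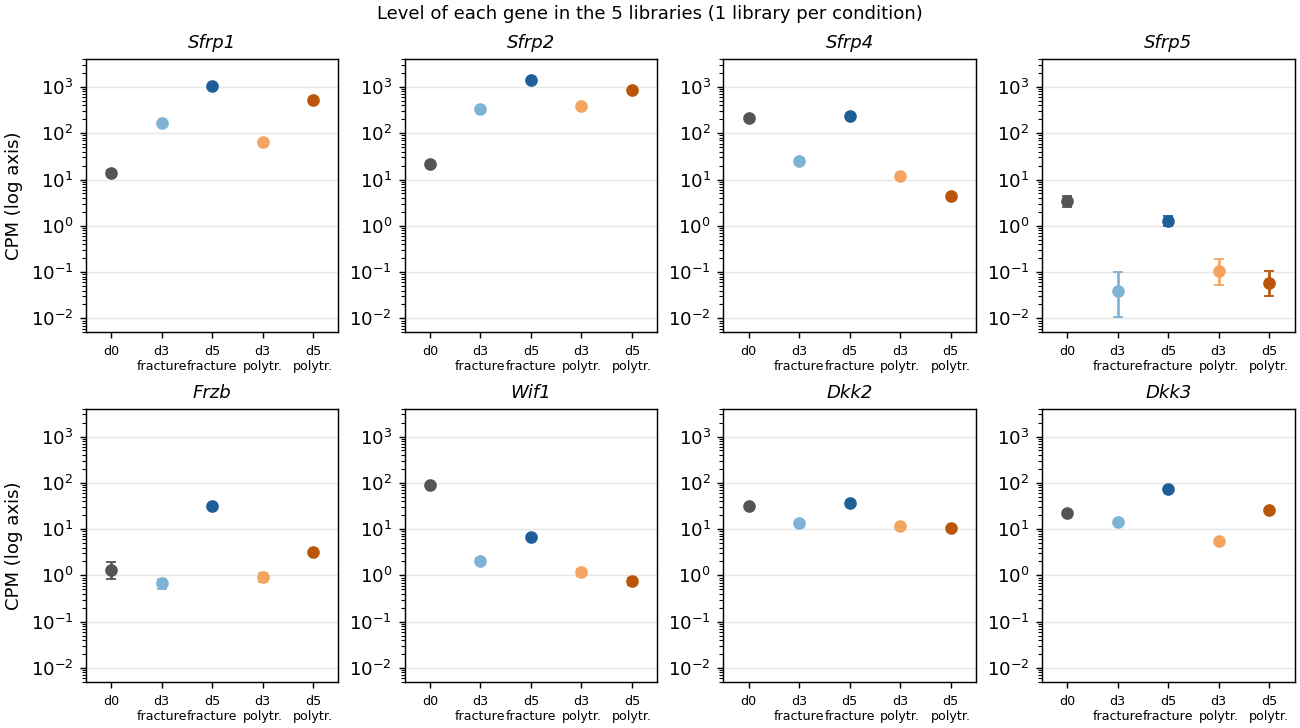
Levels of the 8 secreted Wnt antagonist genes in the 5 libraries, in CPM on a log axis, with bars for the exact Poisson 95% interval of counting error. Sfrp4 reached 214 CPM at d0 and 234 CPM at d5 post-fracture but 4.42 CPM at d5 post-polytrauma, while Sfrp1 and Sfrp2 stood at 531 and 844 CPM in that same library.

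Sfrp1 and Sfrp2, both Wnt-binding relatives of Sfrp4, differed from it in being higher in every injured library than in uninjured muscle. Sfrp1 (chromosome 8, 23411502 to 23449632, plus strand) was at 14.0 CPM (12.3 to 15.9) at d0, 165 (163 to 168) at d3 post-fracture, 1073 (1064 to 1082) at d5 post-fracture, 64.4 (62.9 to 66.0) at d3 post-polytrauma and 531 (528 to 534) at d5 post-polytrauma. Sfrp2 (chromosome 3, 83766321 to 83774316, plus strand) was at 22.1 CPM (20.0 to 24.5), 329 (325 to 332), 1428 (1418 to 1438), 397 (393 to 401) and 844 (840 to 848) in the same order. Day 5 libraries were above day 3 libraries for both genes, and no 2 intervals of a gene overlapped. Sfrp1 was 11.8-fold and Sfrp2 14.8-fold higher at d3 post-fracture than at d0, and 4.61-fold and 17.9-fold higher at d3 post-polytrauma. From d3 to d5 the further ratios were 6.50 and 4.34 post-fracture, and 8.24 and 2.12 post-polytrauma. Without barcodes found in another library, the d5 post-fracture levels were 916 CPM for Sfrp1, 1295 for Sfrp2 and 195 for Sfrp4. That filter kept 599 of the 1468 cells of d5 post-fracture. The kept cells held the smaller part of its UMIs and fewer per cell than those left out, so that the sets also differ in depth.

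Sfrp1 and Sfrp2 were found in far more cells after injury, up to 61.1% for Sfrp2. Thinned shares of cells with an Sfrp1 UMI were 2.55% at d0, 24.7% at d3 post-fracture, 55.1% at d5 post-fracture, 11.0% at d3 post-polytrauma and 45.2% at d5 post-polytrauma. For Sfrp2 the shares were 2.13%, 38.6%, 61.1%, 43.5% and 58.5%. Pericyte-like cells had Sfrp2 shares of 0.144%, 8.51%, 0%, 7.55% and 12.1%, the zero being of 39 cells, and 20.0% of 20 hematopoietic-like cells at d5 post-polytrauma had an Sfrp2 UMI. In FAP/MP-like cells the Sfrp2 share was 2.17% at d0 and 57.8% to 80.7% after injury, far above these values in every injured library. At d5 post-fracture Sfrp1 was highest in an unnamed cluster led by Gzmb and Gzme (212 cells, 2490 CPM), and Sfrp2 in the FAP/MP-like cluster led by Cxcl14 (2784 CPM). The Dpp4-led cluster that was richest in Sfrp4 had 425 CPM of Sfrp1 and 1874 CPM of Sfrp2. In FAP/MP-like cells both genes were within 2-fold between the injuries at day 5, with log2 ratios of polytrauma over fracture of 0.33 for Sfrp1 and -0.03 for Sfrp2, whereas at day 3 Sfrp1 was lower after polytrauma with a log2 ratio of -2.74, against -1.36 over all cells. The day 3 classes are unlike clusters, led by Clec3b and Pi16 after fracture and by Ccl8 and Clec3b after polytrauma (66.4 CPM of Sfrp1). After polytrauma an unnamed cluster of 1578 cells led by Hsd11b1 and Sfrp1 was at 158 CPM and held 53.7% of the Sfrp1 UMIs. That cluster was high in the FAP/MP markers Prrx1, Cxcl12, Pdgfra and Ly6a. It was left unnamed because the pericyte marker Mylk was among its leading genes. The ratio of -2.74 leaves its cells out and so depends on the naming rule. The day 5 ratios of 0.33 and -0.03 depend on that rule as well. Unnamed clusters held 80.5% of the Sfrp1 and 70.5% of the Sfrp2 UMIs at d5 post-fracture, and 57.7% and 57.2% at d5 post-polytrauma.

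**Figure D2:**
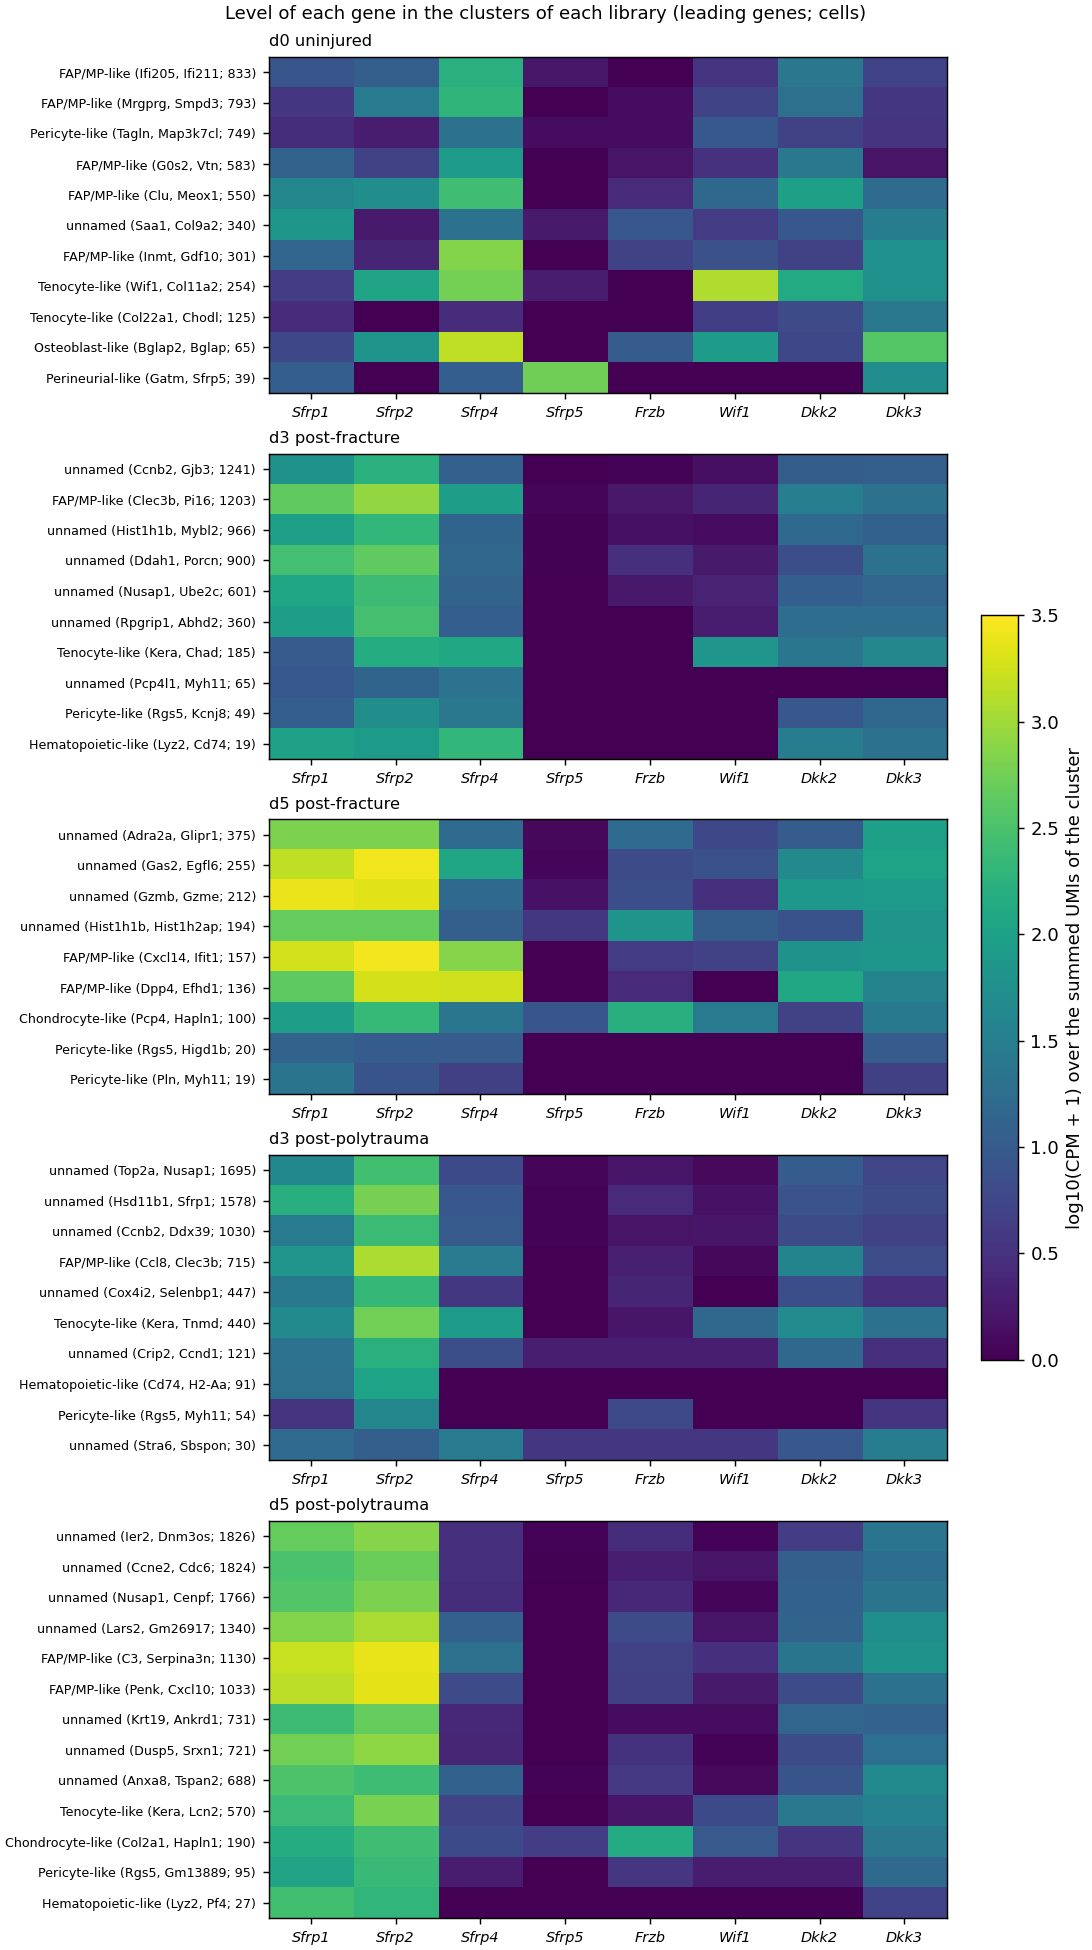
Level of each of the 8 genes (columns) in every cluster (rows, with name, leading genes and number of cells) of each library (panels), as colour for log10(CPM + 1) over the summed UMIs of the cluster. At d0 Sfrp4 was brightest in the osteoblast-like (1465 CPM), Inmt-led FAP/MP-like (714 CPM) and Wif1-led tenocyte-like (579 CPM) clusters, at d5 post-fracture in the FAP/MP-like clusters (1745 and 728 CPM), and no cluster at d5 post-polytrauma exceeds 18.5 CPM.

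The window before the start of Sfrp2 and that of Dkk2, a gene of the same chromosome with another course, are printed because they are the members whose RefSeq start also matched GENCODE and that had at least 386 UMIs in every library. RefSeq (GRCm38.p6) windows were found for 5 of the 8 genes. The 250 bases run from 5′ to 3′ and end 1 base before the start. Capitals mark the motifs found among 3 that were searched on both strands. These were TATAAA (the TATA motif), CTTTGA (a core of TCF and LEF binding motifs) and CCAAT (the CCAAT box).
Sfrp2, chr3:83766071-83766320, plus strand: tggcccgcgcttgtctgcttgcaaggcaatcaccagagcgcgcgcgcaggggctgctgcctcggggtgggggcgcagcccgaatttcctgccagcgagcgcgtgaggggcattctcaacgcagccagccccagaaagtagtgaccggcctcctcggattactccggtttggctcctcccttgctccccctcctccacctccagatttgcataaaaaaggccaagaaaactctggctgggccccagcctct
Dkk2, chr3:132085042-132085291, plus strand: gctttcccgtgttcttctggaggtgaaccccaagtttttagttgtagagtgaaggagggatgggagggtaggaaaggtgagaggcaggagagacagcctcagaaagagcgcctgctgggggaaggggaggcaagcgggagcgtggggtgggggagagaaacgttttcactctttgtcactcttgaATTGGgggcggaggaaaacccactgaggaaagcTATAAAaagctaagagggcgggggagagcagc
The Sfrp2 window held none of the 3 motifs, and the Dkk2 window held TATAAA 32 bases before the start and the CCAAT box on the minus strand (ATTGG) 65 bases before it. TATAAA was present in 12.4%, CTTTGA in 13.8% and CCAAT in 33.8% of the 32817 windows of the same length. A match describes letters only, and a window without one says nothing of any factor. Sfrp5 had none of these letters, Frzb had CTTTGA on the minus strand at 95 bases and Wif1 had TATAAA on the minus strand at 232 bases.

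Sfrp5 and Frzb were rare outside a few clusters. Sfrp5 (chromosome 19, 42197971 to 42202252, minus strand) had 59 UMIs at d0, 4 at d3 post-fracture, 67 at d5 post-fracture, 11 at d3 post-polytrauma and 12 at d5 post-polytrauma, or 3.38, 0.0400, 1.29, 0.106 and 0.0593 CPM. The intervals of the last 2 libraries overlapped each other and that of d3 post-fracture. At d0, 91.5% of its UMIs lay in 39 perineurial-like cells, at 546 CPM, and 36.4% of the 22 such cells deep enough to thin had a UMI. Sfrp5 was itself among the leading genes of that cluster. At d5 post-fracture 52.2% of the Sfrp5 UMIs lay in the chondrocyte-like cluster, at 7.51 CPM. Another 37.3% lay in the cluster led by Hist1h1b, at 2.69 CPM. Frzb, a frizzled-related protein known from cartilage (chromosome 2, 80411970 to 80447625, minus strand), was at 1.32 CPM (0.836 to 1.98) at d0, 0.670 (0.520 to 0.851) at d3 post-fracture, 31.6 (30.1 to 33.2) at d5 post-fracture, 0.910 (0.735 to 1.11) at d3 post-polytrauma and 3.27 (3.03 to 3.53) at d5 post-polytrauma. The intervals of d0 and both day 3 libraries overlapped, and both day 5 libraries lay above them. It was 47.2-fold higher at d5 than at d3 post-fracture, a log2 ratio of 5.56 that was 4.57 without barcodes of another library and 0.44 with the labels as deposited, and 9.67-fold lower at d5 post-polytrauma than at d5 post-fracture.

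Frzb and the cartilage genes were highest in the same library. The 5 chondrocyte markers (Col2a1, Acan, Fgfr3, Sox9 and Col9a1) summed to 80.3, 125, 2816, 118 and 300 CPM from d0 to d5 post-polytrauma in the order of the levels above. At d5 post-fracture the chondrocyte-like cluster (100 cells) had 162 CPM of Frzb and 46.1% of its UMIs. At d5 post-polytrauma the chondrocyte-like cluster (190 cells) had 135 CPM and 43.5% of the UMIs, but in 88 of its cells the barcode also occurred in another library and did not hold at least 10 times the UMIs found there. With such cells left out of every library the log2 ratio of polytrauma over fracture at day 5 was -3.31 for Frzb and -5.81 for Sfrp4, and with every barcode of another library left out it was -2.32 and -5.54. Within the chondrocyte-like clusters the log2 ratio of polytrauma over fracture was -0.27 for Frzb, against -3.27 over all cells. The ratio within clusters was not recomputed without the 88 cells, and median depths were 7460 UMIs after polytrauma and 45225 after fracture. It therefore cannot show whether the 2 clusters are alike.

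Wif1, the Wnt-binding member with a WIF domain (chromosome 10, 121033960 to 121100650, plus strand), was mostly a gene of uninjured tenocyte-like cells. Its levels were 91.0 CPM (86.5 to 95.5) at d0, 2.09 (1.82 to 2.39) at d3 post-fracture, 6.88 (6.19 to 7.64) at d5 post-fracture, 1.18 (0.981 to 1.41) at d3 post-polytrauma and 0.747 (0.632 to 0.876) at d5 post-polytrauma. The d0 level was 43.5-fold above d3 post-fracture and 77.0-fold above d3 post-polytrauma. At d0, 92.4% of its UMIs lay in tenocyte-like cells, of which 41.1% had a UMI after thinning, and the cluster it led with Col11a2 reached 1227 CPM. The thinned share in tenocyte-like cells was 11.0% at d3 post-fracture, 2.05% at d3 post-polytrauma and 0.529% at d5 post-polytrauma, and the 5 tenocyte markers summed to 1136, 245, 560, 204 and 612 CPM, from d0 to d5 post-polytrauma in the order of the levels. Their part in the Wif1 level was not tested. Within tenocyte-like cells Wif1 was at 830 CPM at d0, where the 2 clusters of that name were at 1227 and 3.49 CPM, and at 66.7 at d3 post-fracture, 14.1 at d3 post-polytrauma and 5.04 at d5 post-polytrauma. No cluster was named tenocyte-like at d5 post-fracture. There 33.6% of the Wif1 UMIs lay in the chondrocyte-like cluster, at 25.8 CPM, and 61.3% in unnamed clusters.

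The Dickkopf genes had the smallest ratios between their highest and lowest libraries. Dkk2 (chromosome 3, 132085292 to 132180304, plus strand) was at 31.4 CPM (28.8 to 34.1) at d0, 13.7 (13.0 to 14.5) at d3 post-fracture, 37.6 (35.9 to 39.3) at d5 post-fracture, 11.6 (11.0 to 12.3) at d3 post-polytrauma and 10.3 (9.90 to 10.8) at d5 post-polytrauma. Dkk3 (chromosome 7, 112116017 to 112159057, minus strand) was at 22.3 CPM (20.1 to 24.6), 14.5 (13.8 to 15.3), 74.6 (72.3 to 77.0), 5.41 (4.97 to 5.88) and 25.8 (25.1 to 26.5). Both were highest at d5 post-fracture. From d3 to d5 post-polytrauma Dkk3 was 4.77-fold higher, whereas the log2 ratio of Dkk2 was -0.17. The Dpp4-led FAP/MP-like cluster that held the most Sfrp4 at d5 post-fracture was also the richest in Dkk2, at 124 CPM. Dkk3 at d0 was highest in the osteoblast-like cells, at 376 CPM and 41.4% of its UMIs.

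Counted together, 2 of the 8 genes were called higher and 4 lower at d3 post-fracture than at d0, where 46.4% of 14610 genes tested were called either way (13% higher and 33.5% lower). The higher genes were Sfrp1 and Sfrp2, and the lower genes Sfrp4, Sfrp5, Wif1 and Dkk2. At d5 against d3 post-fracture all 8 were called higher, with a median log2 ratio of 2.53 against 0.73 for all genes, while 45.8% of 15115 genes were called either way (40.3% higher and 5.45% lower). With the labels as deposited this comparison gave 3 called, all lower, where 8.59% of all genes were called, and Sfrp2 and Frzb were at 0.27 and 0.44 in place of 2.12 and 5.56 on the log2 scale.

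After polytrauma, 2 of 8 were higher and 5 lower at d3 than at d0, where 45.6% of 14809 genes were called either way (13.1% higher and 32.5% lower). At d5 against d3 post-polytrauma 4 were higher (Sfrp1, Sfrp2, Frzb and Dkk3) and 1 lower (Sfrp4), where 36.3% of 16093 genes were called either way (28.8% higher and 7.49% lower). Between injuries at day 3, 3 of the 7 genes with enough UMIs were lower after polytrauma (Sfrp1, Sfrp4 and Dkk3) and none higher, where 8.59% of 15038 genes were called either way (5.45% higher and 3.14% lower). At day 5, 7 of 8, all but Sfrp2, were lower after polytrauma and none was higher, where 18.4% of 15979 genes were called either way (3.7% higher and 14.7% lower). The median log2 ratio of the 8 genes there was -2.53 against -0.12 for all genes. Sfrp1, at -1.01, is at the edge of this count and was at -0.79 without barcodes of another library, where 6 of 8 genes were lower and 22.1% of all genes were called either way. Within FAP/MP-like cells 2 genes were past 2-fold at day 5, both lower after polytrauma (Sfrp4 and Dkk2 at -6.59 and -2.65 on the log2 scale), where 16.2% of all genes were called. Among cells with a UMI of both Cd34 and Ly6a, a choice that depends on depth, 7 genes were lower, with 19.3% of all genes called. These were all but Sfrp5, which had too few UMIs there. Sfrp2 was among the 7, at 784 CPM against 1852. With the labels as deposited the comparison between injuries at day 3 gave 8 of 8 higher, where 45.8% of all genes were called either way and 40.3% higher. The other 3 comparisons that use a crossed library gave 4 higher and 2 lower at d3 post-polytrauma against d0 (39.6% of all genes called either way), 7 lower at d5 against d3 post-polytrauma (18.4%), and 4 higher and 1 lower for polytrauma over fracture at day 5 (36.3%). The choice of scaling shifted the split of all calls: at d5 against d3 post-fracture 88.1% of calls were higher in CPM and 49.2% with median-of-ratios factors, under which 6 of the 8 genes were still higher, Wif1 at 0.98 and Dkk2 at 0.72 on the log2 scale being the exceptions.

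**Figure D3:**
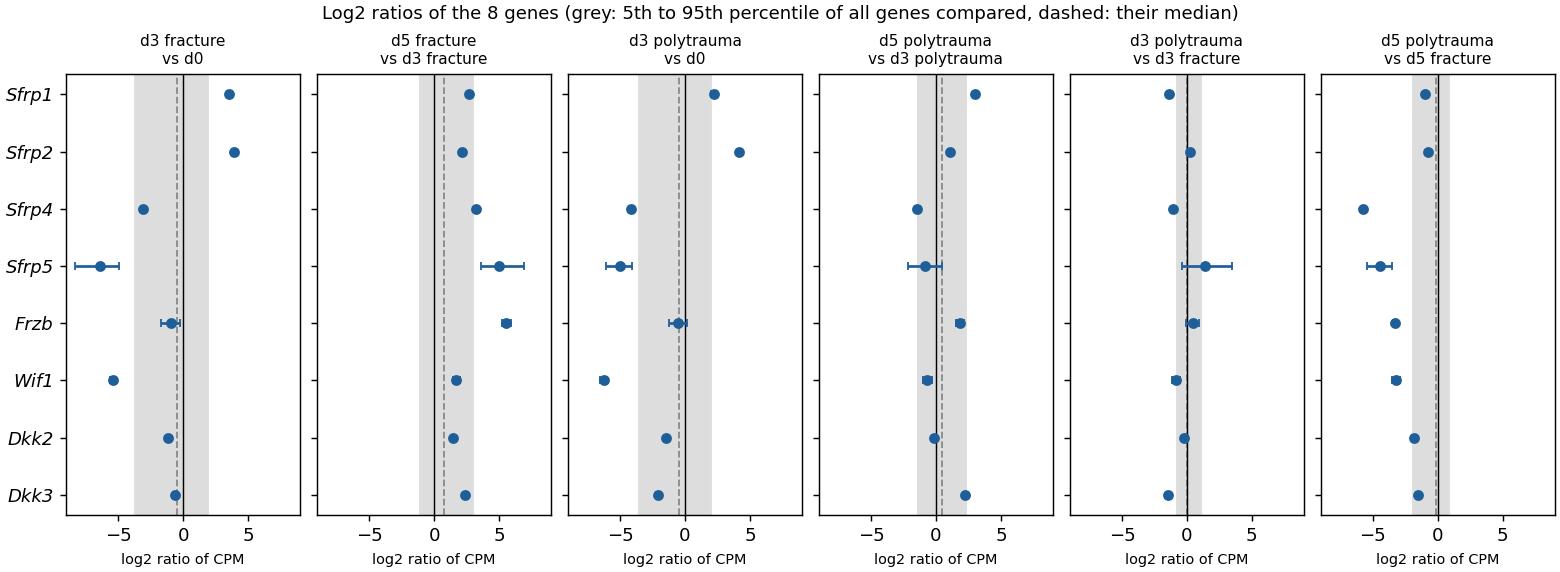
Log2 ratios of CPM for the 8 genes in the 6 comparisons (panels), with bars for the exact 95% interval of counting error, a grey band from the 5th to the 95th percentile of all genes compared and a dashed line at their median. For polytrauma over fracture at day 5, Sfrp4 has the lowest ratio at -5.73 and Sfrp2 the highest at -0.76.

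Members differed in which genes and cells they went with. Across cells of a library, Sfrp1 and Sfrp2 correlated at r = 0.47 at d3 post-fracture, 0.66 at d5 post-fracture, 0.32 at d3 post-polytrauma and 0.59 at d5 post-polytrauma, and at 0.24, 0.45, 0.17 and 0.43 in thinned cells. These points share a library and its depth. Sfrp4 at d5 post-fracture went most with the progenitor and matrix genes Tnxb (r = 0.78), Clec3b (0.77), Ly6c1 (0.73), Igfbp6 (0.70) and Cd34 (0.69), among 10463 genes compared. In thinned cells its top genes were Clec3b (0.63), Ly6a (0.57), Ly6c1 (0.565), Igfbp6 (0.55) and Tnxb (0.53). Frzb at d5 post-fracture went most with the cartilage genes Hapln1 (0.72), Col9a1 and Col2a1 (both 0.71), Col9a3 (0.70) and Matn3 (0.69). Too few thinned cells had a Frzb UMI (58 of 1438) for a correlation at matched depth. Sfrp1 went with Gas6 in each injured library, at r of 0.47 to 0.68, and in thinned cells at 0.51 and 0.40 on day 5 of fracture and polytrauma but at a weak 0.29 and 0.23 on day 3. For Sfrp4 at d3 post-fracture the top gene was Clec3b at 0.31, and at d0 it was Fbln1 at a weak 0.22. The antisense transcript Gm26771 overlaps Sfrp2, and since the strand used in counting is not given in the sources used here, reads of the pair are uncertain. At d5 post-fracture Gm26771 was the gene most correlated with Sfrp2 over all retained cells (r = 0.68), above Sfrp1.

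**Figure D4:**
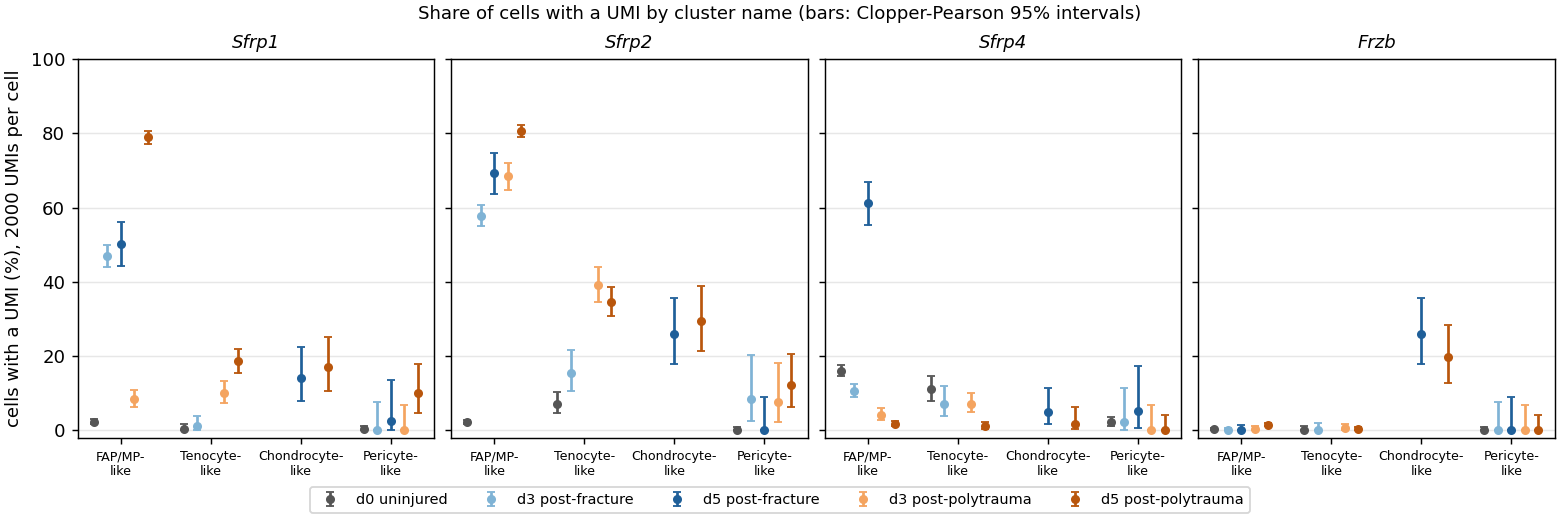
Share of cells with a UMI of Sfrp1, Sfrp2, Sfrp4 and Frzb (panels) by cluster name, in percent after thinning to 2000 UMIs per cell, with 1 colour per library and bars for the exact Clopper-Pearson 95% interval. In FAP/MP-like cells Sfrp4 stood at 61.2% at d5 post-fracture and 1.72% at d5 post-polytrauma, whereas Sfrp2 stood at 69.4% and 80.7%, and the highest Frzb shares were in chondrocyte-like cells (26.0% and 19.6%).

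Other genes of the Wnt pathway, from lists of ligands, receptors, R-spondins, intracellular proteins and target genes, were counted in the same way, under the cell numbers only. At d3 post-fracture 7 of 10 ligands tested were lower than at d0 and none higher, with a median log2 ratio of -1.65, where 33.5% of all genes were lower and their median was -0.45. At d5 against d3 post-fracture 8 of 11 ligands and 14 of 18 receptors were higher and none lower, where 40.3% of all genes were higher. Median log2 ratios there were 1.89 for ligands and 1.80 for receptors against 0.73 for all genes, a background that median-of-ratios scaling brought to -0.01. The other antagonists, such as Nkd1 and Igfbp4, had 7 of 9 higher, the R-spondins 2 of 3 and the intracellular proteins 7 of 9. Wnt10b, a ligand of the canonical pathway, was at 10.7 CPM at d0 and at 0.210, 1.89, 0.126 and 0.292 CPM in the other libraries in order. The R-spondin gene Rspo3, an enhancer of Wnt signalling, went the other way with 3.21 CPM at d0 and 22.9 to 37.1 CPM after injury. Fzd9, a Frizzled receptor, was at 25.1 CPM at d5 post-fracture, 3.01 at d5 post-polytrauma and 0.213 to 0.410 in the other libraries. Fzd2, another, was higher in both day 5 libraries, at 99.1 CPM post-fracture and 83.1 post-polytrauma, than in the other 3, at 10.2 to 18.2. The target gene Myc was at 414 CPM at d0 and 70.3 to 129 CPM after injury. Nkd1, an intracellular inhibitor and Wnt target, stood at 18.5, 2.43, 16.3, 1.02 and 4.33 CPM. At day 5, 6 of 12 ligands, 7 of 18 receptors and 6 of 12 target genes were lower after polytrauma and at most 1 per list higher, with medians of -1.07, -0.92 and -0.98 against -0.12 for all genes, of which 14.7% were lower. Lower there were also 4 of 9 other antagonists and 1 of 3 R-spondins, but 0 of 9 intracellular proteins (median -0.23). After polytrauma 7 of 10 ligands were lower at d3 than at d0 (32.5% of all genes). At d5 against d3, 8 of 12 ligands and 10 of 17 receptors were higher (28.8% of all genes) and 1 ligand was lower. Axin2, the textbook target, was at 2.52, 0.780, 3.99, 0.484 and 1.13 CPM, and Lef1 at 0.115, 0.0600, 0.270, 0.116 and 0.0841 CPM, on few UMIs.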

How the data were processed

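The authors deposited, for each library, a matrix of raw UMI counts per gene and barcode against mm10, made with Cell Ranger. The matrix header names software version 3.1.0, and the methods name another version. The submitters' processing notes name Seurat 3.1.2. Only the deposited counts were used, and 99.9% of the gene IDs were in GENCODE M21, from which positions come. Members and gene lists were chosen with earlier results of these data known. All 8 members are named, and other pathway genes only where past 4-fold in a comparison with at least 100 UMIs, or as Axin2 and Lef1.

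Retained cells were summed per library to CPM, with exact Poisson intervals for levels, exact conditional binomial intervals for ratios and Clopper-Pearson intervals for shares, all at 95%. They cover counting error only, and with 1 library of 2 pooled mice per condition no p-value was computed. For shares, each cell was thinned to 2000 UMIs and shallower cells were left out (744 at d0, 225 at d3 post-fracture, 30 at d5 post-fracture, 83 at d3 post-polytrauma and 424 at d5 post-polytrauma). Clusters were made per library with Seurat 5.3.0 (2000 variable genes without the 8 members, 20 principal components, resolution 0.5). They were named X-like from marker lists, by a rule settled after the clusters were seen, and may differ from the study's. Possible doublets were kept and left out in one alternative. The statistics used scipy 1.17.1, numpy 2.4.6, scanpy 1.11.5 (doublet scores) and pandas 2.3.3 under Python 3.11.15, R was 4.3.3, and the steps were tested on simulated data. Alternatives were the deposited labels, median-of-ratios scaling, no minimum of UMIs, shared barcodes left out, cells weighted equally, FAP/MP-like cells only and no minimum of 20 UMIs, with 3 more added after the data were seen.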

Additional observations from a re-analysis of the deposited data

Results flagged for a closer look

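In 3 of the 8 genes the d5 to d3 ratio had opposite directions after the 2 injuries with counting intervals clear of 0. Sfrp4 had a log2 ratio of 3.22 after fracture and -1.45 after polytrauma, Wif1 of 1.72 and -0.66, and Dkk2 of 1.45 and -0.17. Sfrp5 also had opposite signs, 5.01 and -0.84, but the second rests on 11 and 12 UMIs and its interval of -2.15 to 0.48 spans 0. With 1 library per condition the difference was not tested. With the labels as deposited, Sfrp4 had ratios of -1.06 after fracture and -5.73 after polytrauma, so that the opposite directions depend on which label of the 2 crossed libraries holds.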

How the results depend on the processing

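No paired analysis was possible because each condition is 1 library. Of 66 alternatives for the counts of genes past 2-fold, 62 gave a count within 1.5 times. These counts add higher and lower genes, so that a change of direction does not show in them. The deposited labels turned most calls around at d5 against d3 post-polytrauma. Between injuries at day 5 they turned around Sfrp1, Frzb and Dkk3, while the other called genes stayed lower. Both comparisons are nevertheless among the 62. Some agreements were fixed in advance, since the deposited labels leave d3 post-fracture against d0 unchanged. Dropping the minimum of 20 UMIs cannot alter a count where all 8 genes were tested. With conditions as deposited, 3 genes were past 2-fold at d5 against d3 post-fracture (8 as reported) and 8 between injuries at day 3 (3 as reported). In FAP/MP-like cells only, 4 were past it at d3 post-polytrauma against d0 (7 as reported) and 2 between injuries at day 5 (7 as reported). Conditions as deposited reversed these log2 ratios among those past 2-fold: at d5 against d3 post-fracture Sfrp1 -1.36, Sfrp4 -1.06, Wif1 -0.82, Dkk2 -0.24 and Dkk3 -1.42, at d3 post-polytrauma against d0 Sfrp4 0.13, Dkk2 0.26 and Dkk3 1.74, at d5 against d3 post-polytrauma Sfrp1 -1.01, Sfrp2 -0.76, Frzb -3.27 and Dkk3 -1.53, between injuries at day 3 Sfrp1 2.70, Sfrp4 3.22 and Dkk3 2.36, and at day 5 Sfrp1 3.04, Frzb 1.85 and Dkk3 2.25. Among ratios under 2-fold as reported, Sfrp2 at day 5 became 1.09, Wif1 and Dkk2 between injuries at day 3 1.72 and 1.45, and Frzb at d3 post-polytrauma against d0 4.58. FAP/MP-like cells only reversed Dkk2 at d3 post-polytrauma against d0 (0.13) and Sfrp1 (0.33) and Frzb (0.54) between injuries at day 5. The Frzb interval, -0.13 to 1.28, spans 0. The Dkk2 levels, 36.8 CPM (32.0 to 42.2) at d3 post-polytrauma and 33.7 (30.3 to 37.4) at d0, overlap. The swap of 2 libraries accounts for the reversals under the deposited labels by construction, and the cause of those in FAP/MP-like cells was not tested. Leaving the deposited labels aside, 315 alternatives bore on ratios past 2-fold, of which 292 kept direction and 2-fold, 20 fell under it and 3 reversed. Sfrp4 fell under it once, at -0.97 for d5 against d3 post-polytrauma with cells weighted equally. Without any barcode of another library, Wif1 was at 0.77 for d5 against d3 post-fracture and Sfrp1 at -0.79 between injuries at day 5. Median-of-ratios scaling moved the median of all genes from 0.73 to -0.01 at d5 against d3 post-fracture and from -0.45 to 0.13 at d3 post-fracture against d0, and reversed none of the 8 genes past 2-fold. Shares of cells moved beyond their interval in 71 of 80 alternatives, which were thinning to 4000 UMIs and no thinning. Both leave more UMIs in most cells than the main setting, so that shares tend to rise by construction.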
